A study of Mus musculus with 10 samples.

Results

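The S100A genes encode small calcium-binding proteins of the S100 family. The members, chosen by gene symbol, were S100a1, S100a3, S100a4, S100a6, S100a8, S100a9, S100a10, S100a11, S100a13 and S100a14, and 9 of the 10 were measured, among 12394 genes in all. A gene was measured where a probe set was annotated to it alone, and where it had several, the one with the highest mean over all arrays was used. The probe set of S100a11 is also annotated to the pseudogene S100a11-ps and to Gm12854, so S100a11 was not analysed here. The 10 samples were sorted cell populations of mammary tissue from FVB/N mice, and the RNA of each was hybridised to its own single-colour Affymetrix array. Cancer-associated fibroblasts (CAF, 3 arrays), cancer stem cells (CSC, 2 arrays) and a population titled TEC (2 arrays) were taken from mammary tumours of mice whose genotype is labelled WAPCre-DNbcatn;HGF. Wap-Cre expresses the Cre recombinase from the promoter of a milk protein gene, which is active in secretory mammary epithelium. Fibroblasts of control mammary glands (COF, 3 arrays) were taken from WT mice. One label of the TEC samples reads TEFs instead. The age of the mice, the gates of the sort and whether arrays of a group came from separate mice are not given in the sources used here, so p-values measure only the spread between these samples.

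An S100 protein has a pair of EF-hand calcium sites and usually forms dimers. When it binds calcium it exposes a surface that holds target proteins such as annexins or myosin. Some members also leave the cell and act on receptors such as RAGE, encoded by Ager, and TLR4. S100A8 and S100A9 together form calprotectin, a major protein of neutrophils and monocytes, and S100A4 is also called fibroblast-specific protein although macrophages make it too. Most S100A genes lie side by side on 1 chromosome, in the epidermal differentiation complex.

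All values are log2 values on the RMA scale, on which a step of 1 is a 2-fold difference. Groups were compared only within a gene or within the median of a gene list. The place of a value among the probe sets of its array is given only to mark the ends of the scale. Markers of the labelled cell types were checked first. The 17 measured pan-fibroblast genes had a median value per array of 13.51 to 13.57 in CAF, 8.89 and 8.56 in CSC, 9.23 and 11.69 in TEC, and 13.61 to 13.72 in COF. Among them Pdgfra, a growth factor receptor of fibroblasts, stood at 12.62, 12.62 and 12.40 in CAF, 6.55 and 6.43 in CSC, 7.02 and 9.80 in TEC, and 12.40, 12.26 and 12.36 in COF. The 18 pan-epithelial genes had medians of 6.33 to 6.71 in CAF, 11.44 and 11.51 in CSC, 8.91 and 9.21 in TEC, and 5.70 to 6.01 in COF. The 12 pan-leukocyte genes had medians of 6.44 to 7.64 in CAF, 10.68 and 10.03 in CSC, 13.01 and 12.61 in TEC, and 5.31 to 6.01 in COF. The 14 measured macrophage and monocyte genes had medians of 6.05 to 6.56 in CAF, 12.07 and 11.60 in CSC, 11.01 and 10.99 in TEC, and 5.28 to 5.41 in COF. Pan-leukocyte medians were highest in TEC and macrophage medians highest in CSC, and the TEC array with the higher fibroblast median was replicate 2. The difference between the 3′ and 5′ probe sets for Actb, a sign of RNA quality, was 0.59 to 0.61 in CAF, 0.63 and 0.62 in CSC, 0.32 and 0.46 in TEC, and 0.66 to 0.76 in COF. In sorted bulk RNA, fewer cells of a type and less RNA per cell cannot be told apart.

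Between CAF and COF, the comparison of tumour fibroblasts with those of the healthy gland, S100a8, S100a9 and S100a4 rose and no member fell, so 3 of 9 passed upwards and 6 did not pass (limma, adjusted p under 0.05). Of all genes, 18.1% were higher and 16.7% lower. At an unadjusted p under 0.05 the same count of 3 passed, with 0 lower. The share of all genes at that threshold was not counted here. It cannot be smaller than the share at the adjusted threshold, so this count is not a result about the members. Between CSC and TEC, S100a1 was higher in CSC, and S100a4, S100a6, S100a8 and S100a9 were lower, 1 and 4 of 9 beside 26.6% and 20.1% of all genes. Between CAF and CSC all 9 differed, 4 higher and 5 lower in CAF, beside 33.4% and 33.1% of all genes. The remaining pairs of groups were tested to order the levels: 7 of 9 members passed between CAF and TEC (67.5% of all genes), 9 between CSC and COF (69.5%) and 8 between TEC and COF (68.2%). These backgrounds are high, so a member's call between CAF and CSC or against TEC is common among genes. The median difference of the 9 members was 0.51 between CAF and COF, where that of all genes was 0.018. It was -0.49 between CSC and TEC, with all genes near 0, and -1.75 between CAF and CSC, with all genes at 0.015. Between CAF and COF the only negative difference was that of S100a10, -0.12, which did not pass. Between CSC and TEC and between CAF and CSC members passed in both directions. These medians are the values of single genes, S100a14, S100a3 and S100a1 in turn. Without regard to sign, the medians were 0.51, 1.23 and 2.73 for the members and 0.24, 0.40 and 0.55 for all genes. Comparisons that share a group share its arrays.

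**Figure D1:**
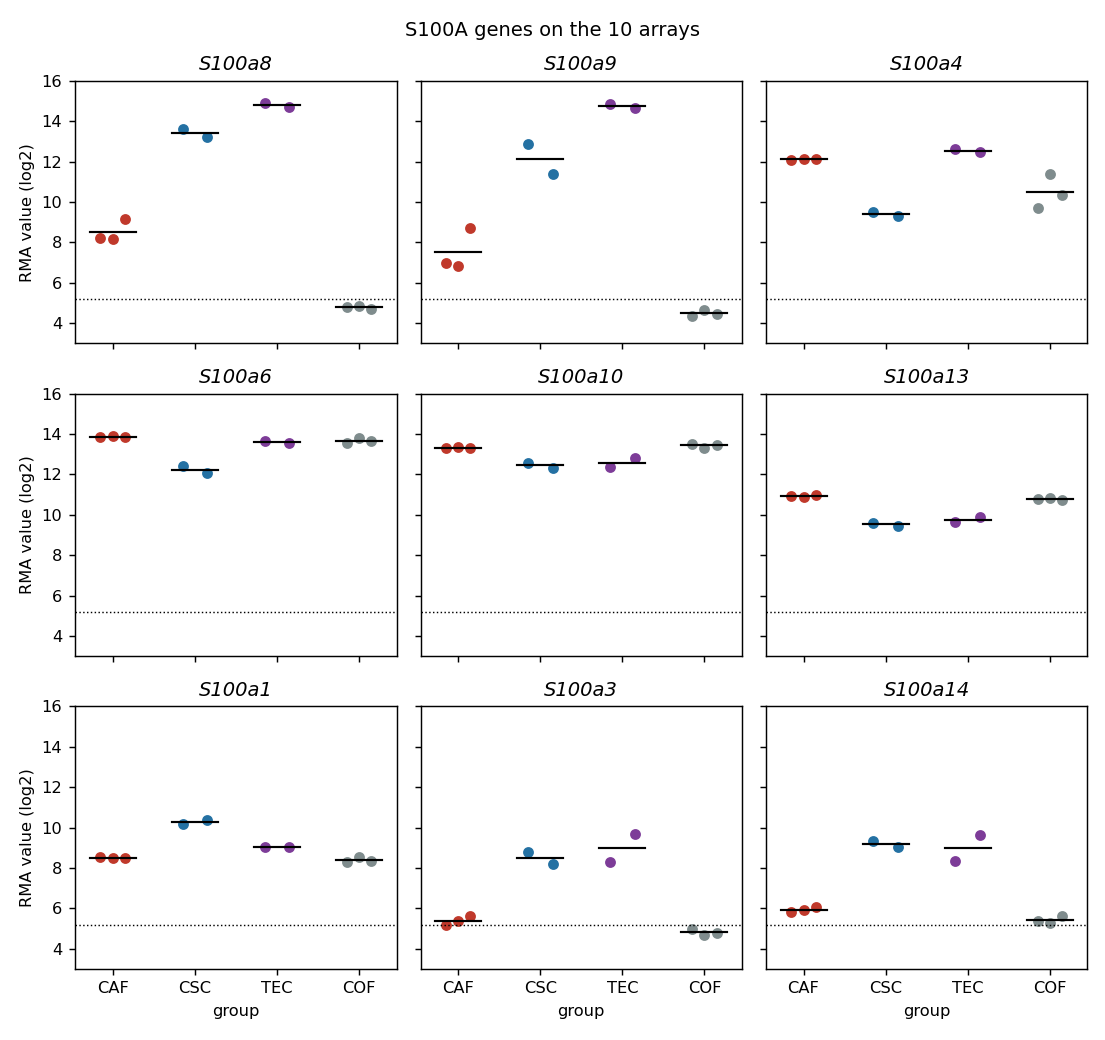
RMA log2 values (vertical axis) of the 9 measured S100A genes by group (horizontal axis); each point is 1 array, each bar a group mean, and the dotted line the mean lower quartile of the arrays. S100a8 and S100a9 have the widest range, with means of 14.80 and 14.75 in TEC and 4.79 and 4.49 in COF, while S100a10 stays between 12.31 and 13.53.

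The calprotectin genes S100a8 and S100a9 had the widest range of group means among the members. S100a8 stood at 8.24, 8.16 and 9.18 in CAF, 13.62 and 13.24 in CSC, 14.89 and 14.70 in TEC, and 4.82, 4.83 and 4.72 in COF. The groups did not overlap, and their order was TEC, CSC, CAF and COF, each step past the test. S100a8 was 13.3-fold higher in CAF than in COF (difference 3.73 ± 0.24, SE, n = 3 and 3, limma adjusted p = 2.31e-05). It was lower in CAF than in CSC (-4.91 ± 0.27, limma adjusted p = 7.53e-07) and 2.58-fold lower in CSC than in TEC (-1.36 ± 0.30, limma adjusted p = 0.00490). S100a9 stood at 6.99, 6.86 and 8.74 in CAF, 12.90 and 11.37 in CSC, 14.86 and 14.65 in TEC, and 4.35, 4.67 and 4.44 in COF. Its groups had the same order, again with no overlap and with each step past the test. S100a9 was 8.24-fold higher in CAF than in COF (3.04 ± 0.51, limma adjusted p = 0.00187), 24.4-fold lower in CAF than in CSC (-4.61 ± 0.57, limma adjusted p = 9.78e-05) and 6.13-fold lower in CSC than in TEC (-2.62 ± 0.62, limma adjusted p = 0.00750). The 2 CSC arrays were far apart in S100a9. Without CSC replicate 2 the difference between CSC and TEC was -1.85 (limma adjusted p = 0.0644) and that between CAF and CSC -5.37, and without CSC replicate 1 they were -3.38 and -3.84. With array weights the step between CSC and TEC was lost for S100a8 (limma adjusted p = 0.0697) and S100a9 (0.0711). Whether the differences of S100a8 and S100a9 differ from each other was not tested.

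Both ends of the scale limit these sizes. On the 3 COF arrays S100a8 and S100a9 lay below the lower quartile of the probe sets, so the size of a difference from COF depends on the background. In TEC both were among the 8 highest values of each array, close to the top of its range. In CAF, replicate 3 was the highest array for both genes, and without it the differences from COF were 3.40 for S100a8 and 2.44 for S100a9 (limma adjusted p = 2.55e-05 and 0.00282). The S100a8 probe set is of the _s_at kind, whose probes can match more than 1 transcript.

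Since these genes carry the differences between the fibroblasts, the 250 bases before the annotated start of S100a8, S100a9 and S100a4 are printed, from RefSeq (mouse GRCm38.p6), each 5′ to 3′ on the strand of the gene. Capitals mark the letters TTNCNNAA on either strand, a loose form of the C/EBP site, and TATAAA on the sense strand.
S100a8, chr3:90668821-90669070, plus strand: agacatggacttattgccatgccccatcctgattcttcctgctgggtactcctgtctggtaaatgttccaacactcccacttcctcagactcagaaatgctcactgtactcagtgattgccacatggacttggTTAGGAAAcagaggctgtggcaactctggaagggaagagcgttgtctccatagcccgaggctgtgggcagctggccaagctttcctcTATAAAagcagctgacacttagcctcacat
S100a9, chr3:90695722-90695971, minus strand: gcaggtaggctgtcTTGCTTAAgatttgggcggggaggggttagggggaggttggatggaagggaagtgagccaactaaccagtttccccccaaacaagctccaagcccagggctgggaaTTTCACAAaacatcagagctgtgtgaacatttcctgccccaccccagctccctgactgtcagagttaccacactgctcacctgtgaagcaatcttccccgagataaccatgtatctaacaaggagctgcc
S100a4, chr3:90603520-90603769, plus strand: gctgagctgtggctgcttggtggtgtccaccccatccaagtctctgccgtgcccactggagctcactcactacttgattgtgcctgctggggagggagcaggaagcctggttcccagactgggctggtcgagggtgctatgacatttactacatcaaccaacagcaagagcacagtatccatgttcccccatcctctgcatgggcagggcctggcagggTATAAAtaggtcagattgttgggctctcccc
C/EBP letters were found once before S100a8, with its last letter 110 bases before the start, on the reverse strand, and in 2 places before S100a9, 236 to 229 and 130 to 123 bases before the start. They were not in the S100a4 window, and 36.8% of all 32851 RefSeq windows of this length hold them. TATAAA lay 30 to 25 bases before the start of S100a8 and 31 to 26 bases before that of S100a4, and 1.99% of all windows hold it 16 to 40 bases before the start. That pattern was added to the search after the sequences had been read. The letters for AP-1 (TGANTCA, 6.75% of windows), NF-kB (GGGNNTTCC, 4.98%) and TCF/LEF (CTTTGNT, 16%), searched on both strands, were in none of these 3 windows. Windows were found for 8 of the 10 members, and those of S100a10 and S100a14 were not used here. S100a3, which did not pass between CAF and COF, has 4 windows. It held C/EBP letters in windows 1 and 4, TCF/LEF letters in window 4, and TATAAA 52 to 47 bases before the start in window 3. The S100a11 window held AP-1 letters 136 to 130 and 38 to 32 bases before the start. The windows of S100a1, S100a6 and S100a13 held none of these letters. A match is a string of letters and not a site.

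Leukocyte genes moved with S100a8 and S100a9 between CAF and COF, and their part in the result was not tested. Of the 12 pan-leukocyte genes 9 rose and 0 fell, with Ptprc, the leukocyte surface phosphatase CD45, at 7.04, 7.35 and 8.88 in CAF and 5.19, 6.57 and 5.78 in COF. CAF replicate 3 had the highest pan-leukocyte median of the CAF arrays, 7.64, against 6.45 and 6.44 on replicates 1 and 2, as it had the highest S100a8 and S100a9. Of the 14 measured macrophage and monocyte genes 10 rose and 0 fell, with the lysozyme gene Lyz2 at 9.64, 8.08 and 9.24 in CAF and 5.54, 5.42 and 5.57 in COF. Of 8 mast cell genes 5 rose, among them the protease Cpa3, at 8.69, 7.72 and 8.85 in CAF and 5.94, 5.79 and 5.93 in COF.

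Neutrophil genes divided between CAF and COF, with 6 of 13 measured higher, 0 lower and 7 not past the test. The medians of the list lay at 6.27 to 6.56 in CAF and at 5.27 to 5.87 in COF. The granulocyte growth factor receptor Csf3r stood at 5.35, 5.12 and 5.23 in CAF and 5.32, 5.20 and 5.19 in COF, and its groups overlapped (-0.0066 ± 0.33, limma adjusted p = 0.993). The chemokine receptor Cxcr2 (0.019 ± 0.34) and the granule gene Ngp (0.23 ± 0.18) did not pass either. Cxcr2 lay below the lower quartile on all fibroblast arrays except CAF replicate 1. Csf3r lay below it on COF replicates 2 and 3 and CAF replicate 2, and close to it on the others. For these receptors the comparison is therefore between values near the background. The genes that rose were Lcn2 (4.83 ± 0.23), the siderophore binder lipocalin 2, Mmp9 (2.99 ± 0.37) and Mmp8 (1.81 ± 0.35), secreted proteases, Ltf (2.44 ± 0.23), lactoferrin, Camp (0.89 ± 0.22), a peptide of neutrophil granules, and Prtn3 (0.50 ± 0.090), proteinase 3. Mmp8 lay below the lower quartile on all COF arrays and Mmp9 on COF replicate 3, so the sizes of their differences depend on the background. Lcn2 and Ltf are also made by epithelium. The neutrophil genes other than Csf3r were picked for naming after their values were seen, and Ly6g was not analysed here.

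In the other tumour populations the median of the neutrophil list was higher than in the fibroblasts, at 8.79 and 7.65 in CSC and 12.44 and 11.78 in TEC. Of the 13 genes 11 were lower in CSC than in TEC and 0 higher, and all 12 pan-leukocyte genes were lower in CSC. The macrophage and monocyte genes went both ways, with 5 of 14 higher and 4 lower in CSC. Lyz2 stood at 13.61 and 13.58 in CSC and 14.22 and 14.12 in TEC, a difference that did not pass (-0.57 ± 0.39, limma adjusted p = 0.266). Csf3r stood at 8.79 and 7.23 in CSC and 12.45 and 11.88 in TEC. CSC replicate 1 had the higher Csf3r, pan-leukocyte median, S100a8 and S100a9 of the CSC arrays. The part of these markers in the differences of S100a8 and S100a9 between CSC and TEC was not tested. The genes closest to S100a8 in pattern were S100a9, with a root mean square difference of 0.59 between mean-centred values over the 10 arrays, and the lysozyme genes Lyz2 (0.62) and Lyz1 (0.67). For S100a9 they were S100a8, Tyrobp (0.59), which encodes an adaptor of myeloid receptors, and Lcp1 (0.65), the leukocyte plastin. The spread of S100a8 itself was 3.96 on the same scale.

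**Figure D2:**
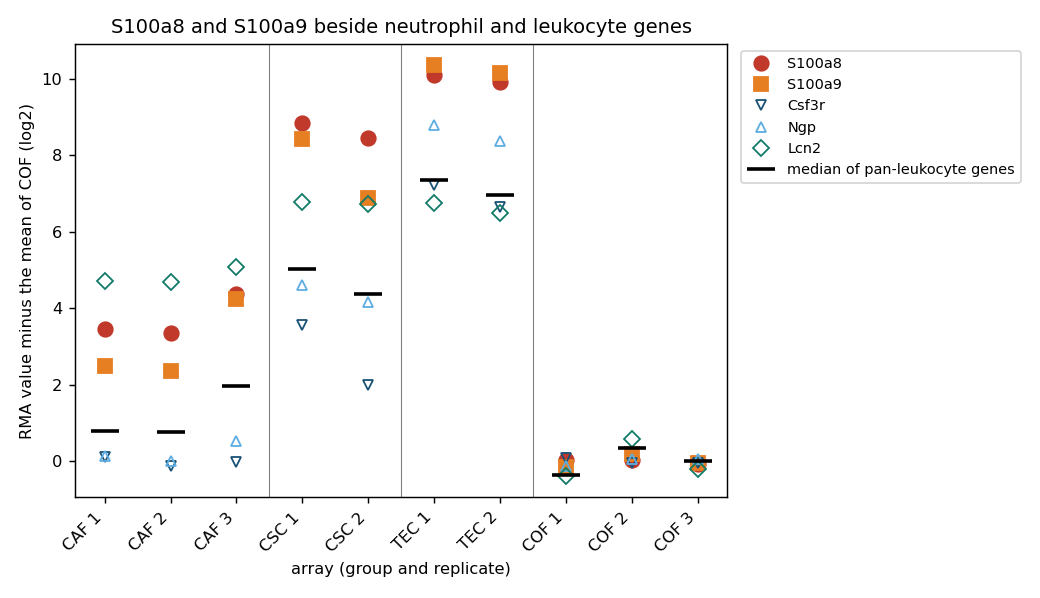
Log2 values of S100a8, S100a9, the neutrophil-list genes Csf3r, Ngp and Lcn2, and the median of the 12 pan-leukocyte genes, each minus its mean over the COF arrays (vertical axis), for each array by group and replicate (horizontal axis). S100a8, S100a9 and Lcn2 lie above COF on all 3 CAF arrays while Csf3r, at 5.35, 5.12 and 5.23 in CAF, lies near its COF values, and all 6 series are raised in TEC.

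S100a4, which binds non-muscle myosin and is known for its part in cell motility, was high in CAF and TEC and lower in COF and CSC. It stood at 12.10, 12.13 and 12.15 in CAF, 9.50 and 9.29 in CSC, 12.61 and 12.51 in TEC, and 9.71, 11.40 and 10.38 in COF. The 3 COF arrays were spread over more than 1 unit and all lay below the CAF arrays. S100a4 was 3.11-fold higher in CAF than in COF (1.64 ± 0.34, SE, n = 3 and 3, limma adjusted p = 0.00527). With the closest pair of arrays in each fibroblast group averaged, the difference was 1.42 and the adjusted p = 0.0538 in limma. COF replicate 2 had the most S100a4 and the highest pan-leukocyte median in COF, 6.01 against 5.31 and 5.66 on replicates 1 and 3. Its pan-fibroblast median was also the highest in COF, 13.72, and its adipocyte median the lowest, 5.98. Acta2, an actin gene named after its values were seen, stood at 7.28, 10.53 and 9.08 in COF and 11.93, 12.12 and 12.08 in CAF. It comes from a list of 9 basal mammary genes, of which 3 rose, 0 fell and 6 did not pass between CAF and COF. In CAF the pan-leukocyte medians were 6.45, 6.44 and 7.64, where S100a4 stood at 12.10, 12.13 and 12.15. The part of these genes in the spread was not tested. S100a4 was 6.65-fold higher in CAF than in CSC (2.73 ± 0.38, limma adjusted p = 1.92e-04) and 8.95-fold lower in CSC than in TEC (-3.16 ± 0.41, limma adjusted p = 2.76e-04). CAF and TEC were neighbours whose difference did not pass (-0.43, 95% interval -1.28 to 0.42), and with only those arrays in the fit it did (adjusted p = 0.00799, limma). The lowest pair, CSC and COF, differed by -1.10 ± 0.38 (limma adjusted p = 0.0264). That call was lost without CSC replicate 1 (limma adjusted p = 0.0667), without CSC replicate 2 (0.122) and with only those groups in the fit (0.0720). Without COF replicate 2 the difference was -0.65 (limma adjusted p = 0.0192). The closest genes in pattern were Emb (0.44), the cell adhesion protein embigin, Glipr2 (0.46) and Olr1 (0.46), a receptor for oxidised lipoprotein, beside a spread of 1.25 for S100a4.

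S100a6, or calcyclin, which binds Cacybp and annexins, was set apart by its low level in CSC. It stood at 13.86, 13.90 and 13.87 in CAF, 12.42 and 12.06 in CSC, 13.67 and 13.54 in TEC, and 13.58, 13.81 and 13.64 in COF. Both CSC arrays lay below every other array. S100a6 was 3.11-fold higher in CAF than in CSC (1.63 ± 0.12, limma adjusted p = 4.87e-06) and 2.56-fold lower in CSC than in TEC (-1.36 ± 0.14, limma adjusted p = 6.70e-05). The CAF arrays lay just above the COF arrays, a difference of 0.20 that did not pass (95% interval -0.049 to 0.45). Nor did the differences between CAF and TEC (0.28, 95% interval -0.0013 to 0.56) and between TEC and COF (-0.077, 95% interval -0.36 to 0.20). The difference between CAF and TEC passed without CSC replicate 1 or 2 and with only those groups in the fit (limma adjusted p of 0.0333 and 0.0390). Its closest genes in pattern were Marcks (0.14), a membrane-bound substrate of protein kinase C, Cd44 (0.14), the hyaluronan receptor, and Fbxo4 (0.15). Cd44 stood at 13.46, 13.49 and 13.47 in CAF, 12.01 and 11.67 in CSC, 13.11 and 13.10 in TEC, and 13.31, 12.97 and 13.20 in COF, also lowest in CSC.

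S100a10, the partner of annexin A2 at the plasma membrane and a member whose EF-hands no longer bind calcium, was higher in both fibroblast populations than in CSC and TEC. It stood at 13.31, 13.34 and 13.30 in CAF, 12.58 and 12.31 in CSC, 12.35 and 12.80 in TEC, and 13.53, 13.32 and 13.47 in COF. All 6 fibroblast arrays lay above the 4 others, while CAF overlapped COF and CSC overlapped TEC. S100a10 was 1.82-fold higher in CAF than in CSC (0.87 ± 0.14, limma adjusted p = 6.34e-04). A second probe set gave a difference of 0.47 there. The difference between CAF and COF was -0.12 (95% interval -0.42 to 0.17) and that between CSC and TEC -0.13 (95% interval -0.48 to 0.23). The closest genes in pattern were Vat1 (0.067), Chodl (0.071) and Srrm3 (0.082). Chodl lay below the lower quartile on every array, and Srrm3 on TEC replicate 1 and CSC replicate 2. Their patterns rest on values near the background.

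S100a13, which takes part in the export of FGF1 and interleukin 1 alpha from the cell, showed the same division. It stood at 10.94, 10.86 and 10.99 in CAF, 9.61 and 9.45 in CSC, 9.65 and 9.87 in TEC, and 10.77, 10.81 and 10.75 in COF. The fibroblast arrays all lay above the others. S100a13 was 2.64-fold higher in CAF than in CSC (1.40 ± 0.10, limma adjusted p = 3.60e-06) and 2.25-fold higher in CAF than in TEC (1.17 ± 0.10, limma adjusted p = 1.23e-05). The difference between CAF and COF was 0.15 (95% interval -0.050 to 0.36), and that between CSC and TEC was -0.23 (95% interval -0.48 to 0.020). The second of these passed without TEC replicate 1 (-0.34, limma adjusted p = 0.0438) and with arrays centred on their medians (-0.31, limma adjusted p = 0.0398). Of the export partners Fgf1, Il1a and Syt1, none passed between CAF and COF, nor at an unadjusted p under 0.05 in limma. Il1a and Syt1 lay below the lower quartile on all fibroblast arrays, and Fgf1 lay close to it. That comparison is therefore between values near the background. Il1a, the cytokine, stood at 3.86, 3.93 and 3.80 in CAF, 7.72 and 7.35 in CSC, 9.34 and 8.61 in TEC, and 3.50, 3.60 and 3.57 in COF, and it was lower in CSC than in TEC (-1.44 ± 0.22, limma adjusted p = 5.92e-04). The closest genes to S100a13 in pattern were Dnaaf4 (0.078), Stard6 (0.078) and Tacr3 (0.086). Dnaaf4 lay below the lower quartile on every array and Tacr3 on both CSC arrays, so these patterns rest on values near the background.

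S100a1, best known from heart muscle, where it acts on calcium release and uptake, was highest in CSC. It stood at 8.54, 8.49 and 8.51 in CAF, 10.16 and 10.36 in CSC, 9.01 and 9.06 in TEC, and 8.31, 8.53 and 8.37 in COF. CSC lay above TEC, and TEC above both fibroblast groups, which overlapped. S100a1 was 2.35-fold higher in CSC than in TEC (1.23 ± 0.11, limma adjusted p = 3.99e-05) and 3.37-fold lower in CAF than in CSC (-1.75 ± 0.10, limma adjusted p = 9.34e-07). Between CAF and COF the difference was 0.11 (95% interval -0.092 to 0.32). A second probe set gave smaller differences in the same directions, 0.73 between CSC and TEC and -1.20 between CAF and CSC. The probe set used is of the _s_at kind. The closest genes in pattern were Dbi (0.070), which encodes the acyl-CoA binding protein, Hint2 (0.078) and Pgp (0.085).

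S100a1 and S100a13 lie head to head. In RefSeq (GRCm38.p6, chromosome 3) S100a13 starts at base 90514435 on the plus strand and S100a1 at base 90514330 on the minus strand, 105 bases apart, so that the 250 bases before each start share 104 bases. Their differences between CAF and CSC nevertheless had opposite signs, 1.40 for S100a13 and -1.75 for S100a1.

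S100a3 and S100a14 are members known from epithelia, S100a3 mainly from the hair cuticle. Both were high in CSC and TEC. S100a3 stood at 5.15, 5.36 and 5.60 in CAF, 8.80 and 8.19 in CSC, 8.28 and 9.68 in TEC, and 4.98, 4.68 and 4.76 in COF. S100a14 stood at 5.79, 5.93 and 6.05 in CAF, 9.33 and 9.01 in CSC, 8.33 and 9.65 in TEC, and 5.37, 5.26 and 5.60 in COF. In both genes CSC and TEC overlapped and stood above all fibroblast arrays. S100a3 was 8.73-fold lower in CAF than in CSC (-3.13 ± 0.36, limma adjusted p = 6.04e-05) and S100a14 9.50-fold lower (-3.25 ± 0.32, limma adjusted p = 2.23e-05). S100a3 lay below the lower quartile on all COF arrays and on CAF replicate 1, so the sizes of its differences from the fibroblasts depend on the background. S100a14 lay above the lower quartile but close to it on COF replicates 1 and 2, so the sizes of its differences from COF depend on the background too.

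The CAF arrays lay above the COF arrays in both genes, and the call depended on which arrays set the spread. Over all 10 arrays the difference between CAF and COF was 0.56 for S100a3 (95% interval -0.16 to 1.28, limma adjusted p = 0.222) and 0.51 for S100a14 (95% interval -0.13 to 1.15, limma adjusted p = 0.205). With the 6 fibroblast arrays alone the adjusted p was 0.0109 for S100a3 and 0.00749 for S100a14 in limma. Without TEC replicate 1 or without TEC replicate 2 it was 0.0325 for S100a3 and 0.0111 for S100a14. The SD of the TEC arrays was 0.99 for S100a3 and 0.93 for S100a14. Of 18 pan-epithelial genes 10 rose and 1, Krt19, fell between CAF and COF. Epcam, an epithelial adhesion protein, stood at 7.74, 8.14 and 8.23 in CAF and 5.92, 7.22 and 6.49 in COF, and the part of these genes in the result was not tested. Krt19 was named after its value was seen.

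Between CSC and TEC the direction of both genes rested on which TEC array was used. The difference was -0.49 for S100a3 (95% interval -1.37 to 0.40) and 0.18 for S100a14 (95% interval -0.60 to 0.96), and neither passed. Without TEC replicate 1 it was -1.19 for S100a3 (limma adjusted p = 0.00670) and -0.48 for S100a14 (limma adjusted p = 0.0704). Without TEC replicate 2 it was 0.22 for S100a3 (limma adjusted p = 0.538) and 0.84 for S100a14 (limma adjusted p = 0.00587). Epcam, in contrast, stood at 13.48 and 13.41 in CSC and 10.70 and 11.39 in TEC, and all 18 pan-epithelial genes were higher in CSC. The gene closest in pattern to either was Klk6, a secreted serine protease, at 0.27 from S100a3 and 0.27 from S100a14. S100a3 and S100a14 came next for each other (0.27), beside spreads of 1.84 and 1.72. Next came Calml3 (0.38), an epithelial calmodulin-like protein, for S100a3 and Ovol1 (0.28), an epithelial transcription factor, for S100a14.

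**Figure D3:**
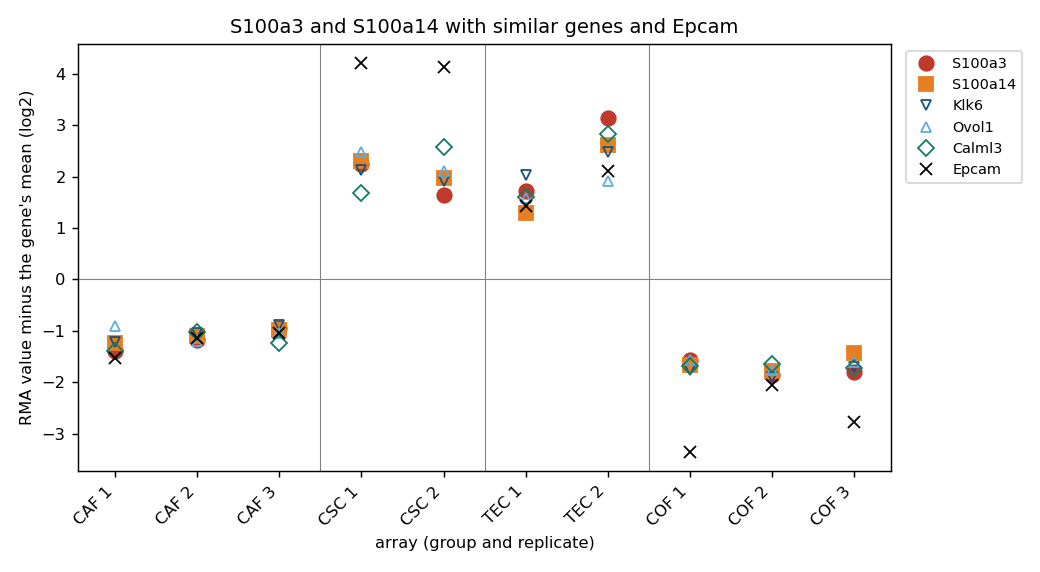
Log2 values of S100a3, S100a14, their closest genes in pattern (Klk6, Ovol1, Calml3) and Epcam, each minus its mean over the 10 arrays (vertical axis), for each array by group and replicate (horizontal axis). Epcam has its highest values, 13.48 and 13.41 in CSC, whereas S100a3 and S100a14 are highest on TEC replicate 2, at 9.68 and 9.65.

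Set side by side in the plot of intervals, S100a4, S100a8 and S100a9 passed in all 3 comparisons, while S100a3, S100a10, S100a13 and S100a14 passed between CAF and CSC and in neither of the others.

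**Figure D4:**
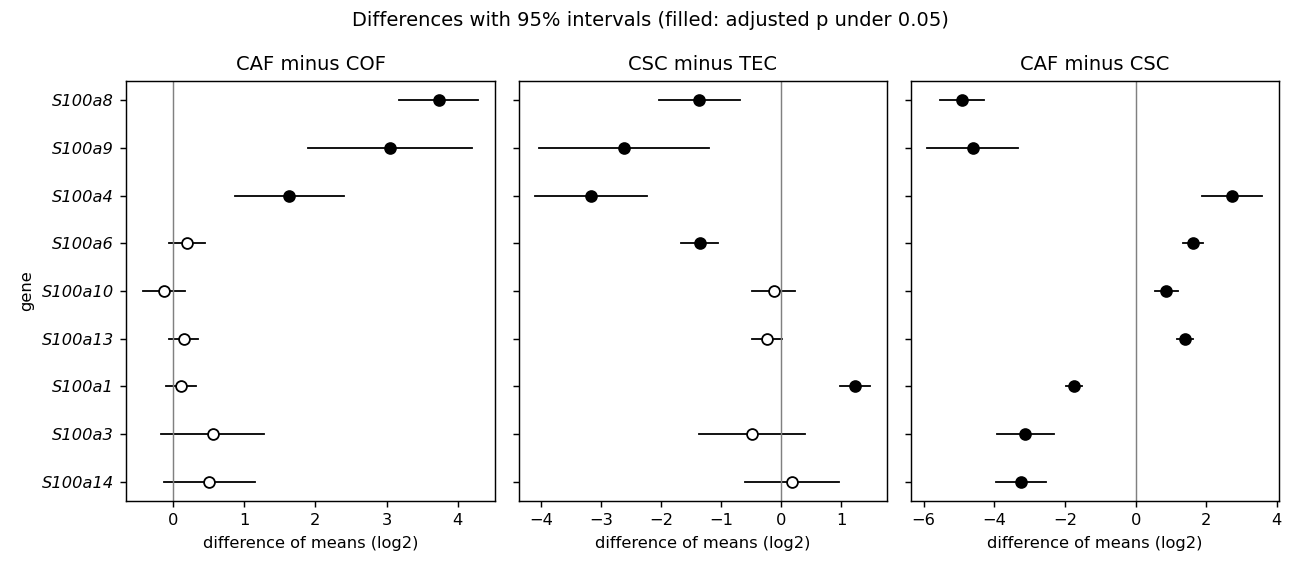
Differences of group means (log2, horizontal axis) of the 9 genes (vertical axis) in CAF minus COF (left), CSC minus TEC (middle) and CAF minus CSC (right); lines are 95% intervals and filled points have an adjusted p under 0.05 over all genes. S100a8 is filled in all 3 panels, with differences of 3.73, -1.36 and -4.91.

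All members lie on chromosome 3, in the order S100a1, S100a13, S100a14, S100a3, S100a4, S100a6, S100a8 and S100a9, within a run of 12 protein-coding genes, with S100a11 and S100a10 next to each other farther on. Between CAF and CSC the sign changed along this run. S100a1, S100a14, S100a3, S100a8 and S100a9 were lower in CAF, and S100a13, S100a4, S100a6 and S100a10 were higher. Of the S100 genes outside the member list, together with the S100-binding protein gene S100pbp, 5 of 9 were measured. Between CAF and COF, 1 rose and 1 fell. The gene that rose was S100pbp (0.85 ± 0.12, limma adjusted p = 7.09e-04), and the gene that fell was S100b (-0.42 ± 0.088, limma adjusted p = 0.00571), known from glia and fat cells. Of 7 measured adipocyte genes 4 were lower and 0 higher in CAF, with a median difference of -0.95, and their part in the result was not tested. S100b stood at 6.63, 6.76 and 6.66 in CAF, 5.58 and 5.34 in CSC, 5.70 and 5.79 in TEC, and 7.11, 7.10 and 7.08 in COF. In CSC against TEC 1 passed, S100a5, lower in CSC (-0.30 ± 0.11, limma adjusted p = 0.0446). S100a5 lay below the lower quartile on CSC replicate 2 and close to it on CSC replicate 1. S100a16, the neighbour of S100a14, was higher in CAF than in CSC (1.14 ± 0.40, limma adjusted p = 0.0303), and its difference between CAF and COF was 0.78 (95% interval -0.020 to 1.59). S100a16 is named for its place in the run.

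**Figure D5:**
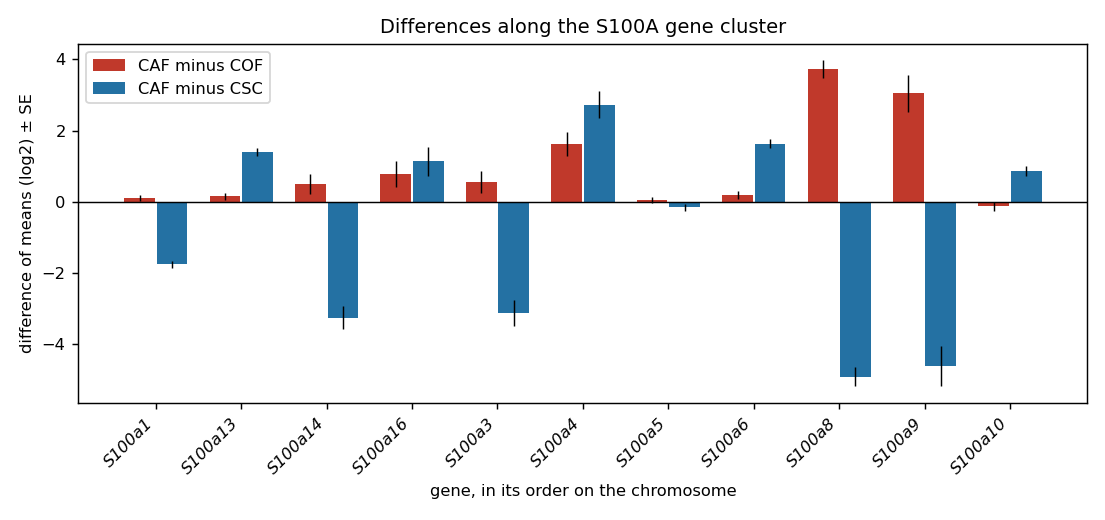
Differences of means (log2, vertical axis; bars start at 0 and carry the SE) in CAF minus COF and CAF minus CSC for the 9 members, S100a16 and S100a5 in their order on the chromosome (horizontal axis, not to scale). Neighbours such as S100a1 and S100a13 have opposite signs in CAF minus CSC, -1.75 and 1.40, and in CAF minus COF the tallest bars are those of S100a8 and S100a9.

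Other genes of the epidermal differentiation complex were mostly not past the test between CAF and COF, with 2 of 12 measured higher and 0 lower. The genes that passed encode precursors of the cornified envelope, Sprr1a (0.88 ± 0.29, limma adjusted p = 0.0422) and Sprr1b. Sprr1b lay below the lower quartile on all 6 fibroblast arrays, so its difference is one between values near the background. Relative to TEC, 4 were lower in CSC, Tchh (-2.65 ± 0.35), which encodes the hair follicle protein trichohyalin, Sprr1a (-1.84 ± 0.35), Flg, which encodes filaggrin, and Hrnr, which encodes hornerin. The 2 that were higher in CSC, Lce3a and Sprr2d (0.37 ± 0.13), were named after their values were seen. Flg, Hrnr and Lce3a lay below the lower quartile on all CSC and TEC arrays, so their calls too are between values near the background.

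Receptors for secreted S100 proteins and genes of the TLR4 complex had no common direction between CAF and COF. Of 10 measured, 3 rose, 2 fell and 5 did not pass, with a median difference of -0.077. The TLR4 co-receptor Cd14 (3.07 ± 0.14), the calprotectin receptor Mcam (0.70 ± 0.23) and Bsg (0.32 ± 0.11), or basigin, rose. Cd14 is also a marker of monocytes. The adaptor Myd88 (-1.14 ± 0.16) and the fatty acid receptor Cd36 (-1.59 ± 0.31), which fat cells also make, fell. The adipocyte genes given beside S100b moved with Cd36, and their part was not tested. Tlr4 itself stood at 7.69, 7.58 and 7.36 in CAF and 8.15, 7.32 and 7.88 in COF, which overlapped (-0.24 ± 0.26, limma adjusted p = 0.541). Ager stood at 5.55, 5.54 and 5.49 in CAF and 5.54, 5.34 and 5.33 in COF, which overlapped too (0.12 ± 0.10, limma adjusted p = 0.432). Between CSC and TEC 0 were higher and 7 lower in CSC, with a median of -0.68. Among them were Ly96 (-1.06 ± 0.15), the partner of TLR4 known as MD-2, Tlr4 (-1.46 ± 0.32), Myd88 (-1.02 ± 0.20), Ager (-0.57 ± 0.13) and Nptn (-0.43 ± 0.10), or neuroplastin. Ager lay below the lower quartile on both CSC arrays, so the size of its difference depends on the background. Pan-leukocyte medians were lower in CSC as well, and their part in the result was not tested.

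Among the annexins, which S100 proteins hold at membranes, Anxa2 rose between CAF and COF. Anxa2 stood at 13.59, 13.62 and 13.59 in CAF, 12.96 and 12.95 in CSC, 13.26 and 13.43 in TEC, and 12.99, 13.29 and 13.10 in COF, with the CAF arrays above all others. Its difference between CAF and COF was 0.47 ± 0.10 (limma adjusted p = 0.00483), and whether this differs from the -0.12 of its partner S100a10 was not tested. Of 6 measured annexin genes and Ahnak, 1 rose and 1 fell, Anxa5 (-0.53 ± 0.15, limma adjusted p = 0.0208). Anxa1, a partner of S100A11, did not pass (-0.090 ± 0.080, limma adjusted p = 0.454). In CSC against TEC Anxa7 was higher in CSC (0.52 ± 0.12), and Anxa1 (-0.41 ± 0.10), Anxa2 (-0.39 ± 0.12) and Anxa6 (-0.59 ± 0.16) were lower. Between CAF and CSC 4 of the 6 were higher in CAF and 0 lower.

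Of 9 measured intracellular targets of S100 proteins, 3 rose, 3 fell and 3 did not pass between CAF and COF. Myh9, the heavy chain of non-muscle myosin that S100A4 binds, stood at 12.18, 12.27 and 12.25 in CAF and 11.61, 11.86 and 11.67 in COF, which did not overlap (0.52 ± 0.11, limma adjusted p = 0.00597). The actin capping subunit Capzb (0.94 ± 0.087) and the cochaperone Sugt1 (0.37 ± 0.10) rose too. The genes that passed downwards were Ryr1, a calcium release channel whose values lay below the lower quartile on all fibroblast arrays, Atp2a2 (-0.43 ± 0.12), the calcium pump SERCA, and Mdm2 (-0.34 ± 0.10), a ubiquitin ligase of p53. Set against TEC, Cacybp (0.71 ± 0.13), the calcyclin-binding protein, and Atp2a2 (0.77 ± 0.15) were higher in CSC. Ryr1 (-2.01 ± 0.15), Mdm2 (-0.83 ± 0.13) and Capzb (-0.67 ± 0.11) were lower. Ryr1 lay below the lower quartile on both CSC arrays, so the size of its difference depends on the background. Of 6 measured genes whose products S100A10 brings to or holds at the membrane, 0 passed in CAF against COF or in CSC against TEC. The limma count at an unadjusted p under 0.05 was 0 in both, and the share of all genes there was not counted. Of the 6, 2 lay below the lower quartile on every fibroblast array, and 2 or 3 on each CSC and TEC array, so part of this rests on background values. Between CAF and CSC 4 were higher and 1 lower in CAF, beside 33.4% and 33.1% of all genes.

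Of 12 other measured EF-hand genes 2 rose and 1 fell between CAF and COF, with a median difference of 0.30. Those that rose were Sri (0.50 ± 0.10), which encodes sorcin, and Gca (0.62 ± 0.18), which encodes grancalcin. The gene that fell was Efhd1 (-1.68 ± 0.42, limma adjusted p = 0.0139). In CSC against TEC 0 were higher and 4 lower in CSC, namely Sri (-1.29 ± 0.13), Gca (-1.24 ± 0.21), Sdf4 (-0.84 ± 0.11) and Pdcd6 (-0.42 ± 0.11). Grancalcin is known from neutrophils, whose genes were also lower in CSC than in TEC, and their part in the result was not tested.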

How the data were processed

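RMA produced the deposited log2 values of 22690 probe sets, according to the submitters' processing notes, with its version not given in the sources used here. RMA corrects background, makes the arrays' distributions alike and summarises the probes of a set, so low values lie near the background. Per the labels' protocols, 100 ng of total RNA was used per array. The deposited log2 values were used unchanged.

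Of the probe sets 20393 are annotated to 1 gene, 691 to several and 1606 to none. The first kind was used. Groups were compared with lmFit and eBayes (limma 3.58.1, R 4.3.3) over all 10 arrays with group as the only term, two-sided, with Benjamini-Hochberg adjustment over 12394 genes per comparison and a threshold of 0.05. Precision is limited by the number of arrays. The fit was tested on simulated data. Settings changed 1 at a time were the arrays in the fit, probe set choice, dim genes, normalization, array weights, threshold and prior. Related genes named are, per list, up to 4 with the smallest adjusted p among those that passed, plus Ager, Tlr4, Anxa1, Anxa2, Cd36 and S100b. The 3 genes closest in pattern are named for each member. The members and lists were chosen with earlier results of these data known. Protein sequences were not used here.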

Additional observations from a re-analysis of the deposited data

How the results depend on the processing

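Over 22 other settings, 1142 of the 1176 values of single members kept their direction and side of the threshold, 8 lost the call, 21 gained it and 5 changed sign. The sign changed for S100a6 between TEC and COF with a second quantile normalization (0.040). Between CSC and TEC it changed for S100a14 without TEC replicate 1 (-0.48), for S100a3 (0.22) and S100a10 (0.10) without TEC replicate 2, and for S100a10 without CSC replicate 2 (0.010). None of these had passed. Over the settings without 1 array, the difference between CSC and TEC ranged over -1.19 to 0.22 for S100a3, -0.35 to 0.10 for S100a10 and -0.48 to 0.84 for S100a14. Between CAF and COF 5 of 9 members passed with only those groups in the fit, where 5686 of 12394 genes did, and 9 with array weights, where 8632 did and which gave COF replicate 3 a weight of 40.65. Between CSC and TEC 3 passed with array weights, where S100a8 had an adjusted p of 0.0697 and S100a9 of 0.0711 in limma, and 3 of 7 without probe sets ending in _x_at, _s_at or _a_at, which leaves out S100a6 and S100a8. Of all genes, 4309 passed between CAF and COF, against 2638 at an adjusted p under 0.01 and 1805 with the closest fibroblast arrays averaged. Between CSC and TEC 5786 passed, against 3013 with only those groups in the fit. With every probe set tested, of 20393, the counts were 6878, 9152, 13222, 13544, 13813 and 13804 for CAF against COF, CSC against TEC, CAF against CSC, CAF against TEC, CSC against COF and TEC against COF, because more features were tested. The cause of the other changes was not tested.

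Without 1 array at a time, 2980 to 5100 genes and 3 to 5 members passed in CAF against COF, 4417 to 6039 and 4 to 7 between CSC and TEC, 7059 to 8737 and 9 between CAF and CSC, 7432 to 8506 and 7 to 8 between CAF and TEC, 7588 to 9094 and 8 to 9 between CSC and COF, and 7747 to 8617 and 8 between TEC and COF. Over 13 pairs of arrays with the same replicate number, deviations from the group means correlated between -0.082 and 0.13, and 1 pair was over 0.1. In groups of 2 arrays the deviations mirror each other, so these values cannot show whether arrays with the same number were paired. With the replicate number as a block 3947 genes passed in CAF against COF and 5365 in CSC against TEC, and the member counts stayed at 3, 5, 9, 7, 9 and 8. Groups of 2 arrays and values near the background limit the precision.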
